A study of Mus musculus with 12 samples.

Results

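The genes of DNA replication were followed in visceral white adipose tissue of mice on high-fat or control diet, with and without a TGF-b1 transgene that acts in the heart. The set held 36 genes, taken by symbol for what their proteins do in copying DNA, out of 50559 genes counted. No measured value enters that rule, but the set was chosen with earlier results of these data known. All 36 were found by symbol in every library, all 36 passed the filter on low counts, and all 36 matched RefSeq and GENCODE entries of the mouse assembly GRCm38. High-fat diet raised 21 of them when its effect was averaged over both genotypes, and lowered none, where 9.43% of all genes were called higher and 7.98% lower. The largest rises were those of Mcm10, Pclaf, Rrm2, Mcm6 and Uhrf1, by 1.41 to 2.31 on the log2 scale. Pcna, Mcm7, Mcm4, Rrm1, Orc6 and Prim1, most of them among the most abundant of the 36, differed between diets by less than 0.10 on that scale. No gene of the set was called for the transgene on either diet.

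The 4 groups had 3 libraries each and came from FVB/N mice. Transgenic mice carried alphaMHC tTA together with alphaMHC TGFb, a tetracycline transactivator and a TGF-b1 transgene that are driven in the heart by the alpha-myosin heavy chain promoter. Wild-type mice were littermates that carried alphaMHC tTA without the TGF-b1 transgene, so all groups share the driver. The groups were transgenic on high-fat diet, transgenic on control diet, wild type on high-fat diet and wild type on control diet. The high-fat diet gave 60% of its energy as fat (5.21 kcal/g) and was fed from 8 to 10 weeks of age for 2 or 6 weeks, and the labels do not tie a duration to a library. The control was chow with 17% of its energy as fat (3.1 kcal/g). No age or feeding time is given for the control libraries, so a match in age cannot be checked. The design asks what the diet does to this fat depot and whether TGF-b1 made by the heart alters it. Nothing in the labels ties a library to an animal of its own, so p-values cover only the library-to-library spread, part of which may be technical.

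Libraries held 20101240 to 21337312 gene counts, of which 4471 to 7379 fell on the 36 genes. The adipocyte markers Adipoq, Plin1, Pparg, Cidec, Fabp4 and Lipe were abundant in every library, with a summed level of 18169 to 23344 CPM (counts-per-million, scaled by the TMM method). Epithelial markers stood apart in transgenic control replicate 2 (summed 221 CPM) and wild-type control replicate 1 (32.6 CPM), against at most 8.09 CPM elsewhere. Skeletal muscle markers stood apart in transgenic control replicate 3 (535 CPM) and wild-type high-fat replicate 3 (348 CPM), liver markers in wild-type high-fat replicate 2 (279 CPM), and Schwann cell markers in wild-type control replicate 1 (200.2 CPM, against at most 82.6 CPM elsewhere). Tgfb1 lay between 45.6 and 82.2 CPM in the 12 libraries, and because the transgene acts in the heart this does not check the genotype labels. A gene was called where edgeR's quasi-likelihood test gave an adjusted p below 0.05 over all 16550 genes tested. By this test Tgfb1 was called higher on high-fat diet in transgenic (log2 0.46, adjusted p = 0.0106) and wild-type mice (0.52, adjusted p = 0.0244). On control diet Tgfb1 stood at 51.2 to 61.8 CPM in transgenic and 45.6 to 47.7 CPM in wild-type mice (adjusted p = 0.274). On high-fat diet it stood at 74.9 to 82.2 and 63.6 to 69.0 CPM (adjusted p = 0.714).

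A cell prepares to copy its DNA in G1 phase, when the origin recognition complex, Cdc6 and Cdt1 load a ring of the proteins Mcm2 to Mcm7 onto each origin. In S phase Cdc45, the GINS complex and Mcm10 turn that ring into the working helicase. Replication factor C then loads the sliding clamp PCNA, which tethers the polymerases, while ribonucleotide reductase and thymidylate enzymes supply the building blocks. Many of these genes are targets of E2F transcription factors, which are freed from the retinoblastoma protein as a cell enters S phase. Mature fat cells seldom divide, and in fat tissue of overfed mice macrophages and adipocyte progenitors are among the cells known to proliferate.

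The promoters of the set were read from the RefSeq table of GRCm38.p6, which held a window for 31 of the 36 genes. A window gives the 300 bases from 250 before to 50 after a start of the gene. That start need not be the outer end of the gene. An E2F site was searched as any of the 8-base words TTTCCCGC, TTTCGCGC, TTTGCCGC and TTTGGCGC on either strand, and words that overlap were counted separately. Such a word lay in the window of 14 of the 31 genes (45.2%), against 2.6% of 27025 genes in the table and 3.29% of 17492 protein-coding ones. Among the 19 genes with a window that high-fat diet raised, 10 held it (52.6%), and among the other 12 genes, 4 held it (33.3%). The CCAAT box, searched as CCAAT on either strand, lay in 64.5% of the 31 and 41.1% of all genes, and the cell cycle homology region, searched as TTTGAA on either strand, in 16.1% and 20.2%. In the genes that rose and in the others, the CCAAT box lay in 63.2% and 66.7%, and TTTGAA in 15.8% and 16.7%. The splits by diet call rest on few genes and were not tested. All of these are matches of letters and not evidence of binding. The stretches that hold the E2F words are printed 5′ to 3′ on each gene's strand, with the words in capitals. They cover some members of the ring, of origin licensing, of the chromatin group and of the polymerases. The Uhrf1 stretch precedes the second of its RefSeq starts, and those of Orc1, Cdc6 and Pola1 also lie inside the RefSeq span of their gene. The span of Orc1 begins at 108575705, that of Cdc6 at 98907709 and that of Pola1, on the minus strand, at 93632387:
Mcm6 (chr1:128359730-128359830, minus strand): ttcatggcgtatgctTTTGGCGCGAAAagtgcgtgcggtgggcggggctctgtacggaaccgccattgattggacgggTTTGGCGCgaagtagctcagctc
Mcm5 (chr8:75109341-75109382, plus strand): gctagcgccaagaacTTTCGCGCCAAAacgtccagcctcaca
Orc1 (chr4:108579412-108579449, plus strand): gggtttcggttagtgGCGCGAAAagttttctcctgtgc
Cdc6 (chr11:98907998-98908035, plus strand): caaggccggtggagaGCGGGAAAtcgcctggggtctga
Uhrf1 (chr17:56304113-56304150, plus strand): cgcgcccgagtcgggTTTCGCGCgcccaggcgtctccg
Pola1 (chrX:93632271-93632308, minus strand): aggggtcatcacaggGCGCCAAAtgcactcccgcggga

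In Mcm6 the 3 words lay within the 125 bases before the start, and 2 of them overlap on opposite strands. Mcm7, which was level, and Rfc3, which was not called, each held 2 E2F words in windows that are not printed. The windows of Mcm10, Rrm2 and Pcna held none of these words, although Mcm10 and Rrm2 were among the genes with the largest rises and Pcna was level. CCAAT boxes before their starts, in capitals as CCAAT or its reverse complement, are printed for comparison, and a further one of Mcm10, at 32 to 36 bases after the start, lies outside the printed stretch:
Mcm10 (chr2:5012795-5012904, minus strand): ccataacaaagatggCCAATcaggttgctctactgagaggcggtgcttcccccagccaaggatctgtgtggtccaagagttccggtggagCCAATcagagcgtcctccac
Rrm2 (chr12:24708189-24708223, plus strand): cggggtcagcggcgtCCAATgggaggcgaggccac
Pcna (chr2:132253248-132253282, minus strand): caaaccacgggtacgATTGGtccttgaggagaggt

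Within transgenic mice, 15 of the 36 genes were called higher on high-fat than on control diet and none lower, where 5.39% of all genes were called higher and 8.73% in either direction. Within wild-type mice, 5 were called higher (Mcm6, Mcm10, Pclaf, Pole and Uhrf1) and none lower, where 0.683% of all genes were called higher. All 5 were also called in transgenic mice. Averaged over genotypes the count was 21 higher and 0 lower, where 9.43% of all genes were called higher and 7.98% lower. The median log2 fold change of the 36 was 0.57 in transgenic mice, 0.39 in wild-type mice and 0.47 averaged, against medians of -0.02, -0.01 and -0.02 over all genes tested. Positive log2 fold changes were found for 31, 32 and 33 of the 36 in those comparisons, against 47.1%, 47.9% and 47.2% of all genes. Every high-fat library lay above every control library for 21 genes of the set within transgenic mice (14.4% of all genes) and for 19 within wild-type mice (12.6%). All 6 high-fat libraries lay above all 6 control libraries for 12 of them (3.98% of all genes) and below them for none (2.79%). In bulk tissue, more cells that copy their DNA and more RNA per such cell cannot be told apart.

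The 2 counts within a genotype depended on which libraries entered the fit. In transgenic mice the count was 9 without transgenic control replicate 2, 9 without transgenic high-fat replicate 1 and 8 without transgenic high-fat replicate 3. In wild-type mice the count was 0 without any 1 of control replicates 1 and 2 and high-fat replicates 1, 2 and 3. Over the 12 fits without 1 library, the wild-type log2 fold changes of the genes called there kept their sign. They ranged from 2.12 to 2.33 for Mcm10, 1.88 to 2.36 for Pclaf and 1.21 to 1.56 for Mcm6. Those of Uhrf1 and Pole ranged from 1.22 to 1.47 and from 0.75 to 0.92. DESeq2 and limma-voom each called 10 in wild-type mice with all libraries. In either direction they called 4.99% and 4.22% of all genes there, against 1.14% for edgeR. The edgeR count there was 3 without wild-type control replicate 3, transgenic control replicate 1 or transgenic high-fat replicate 2. Mcm6, Mcm10, Pclaf, Pole, Rrm2, Fen1, Chaf1a and Uhrf1 were called in transgenic mice whichever of the 12 libraries was left out. The averaged count was steadier, at 18 to 21 without any 1 library, 15 without both libraries rich in epithelial markers and 17 without both rich in muscle markers.

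**Figure D1:**
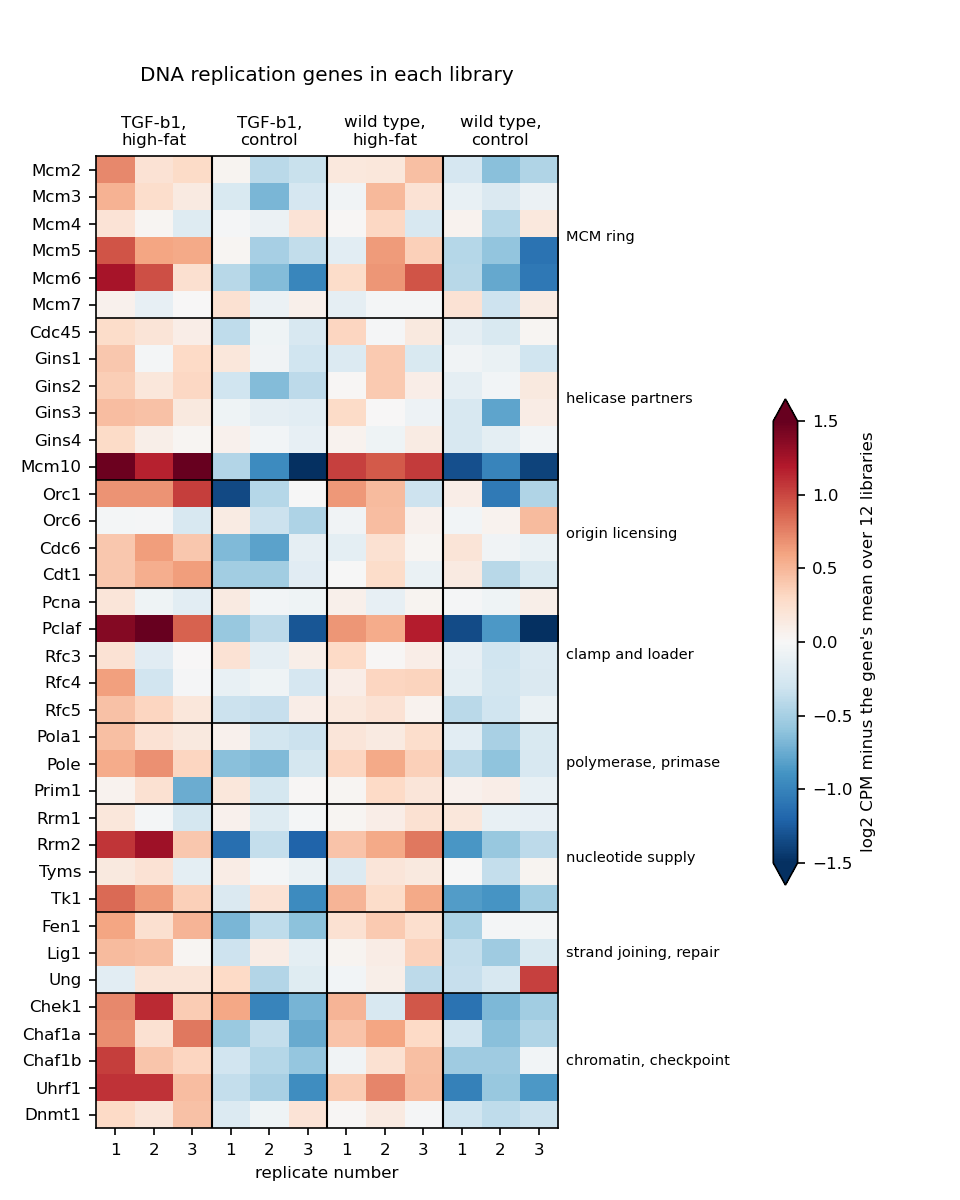
Level of each of the 36 genes in each library, as log2 CPM minus the gene's mean over the 12 libraries; rows are genes grouped by role, columns are libraries grouped by genotype and diet, and colours saturate at -1.5 and 1.5. Red fills most of the high-fat columns for Mcm5, Mcm6, Mcm10, Pclaf, Rrm2, Tk1, Chaf1a and Uhrf1, while Mcm7, Pcna, Gins4 and Rrm1 stay near white in all columns.

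Origin licensing came first in the order of replication, and 2 of its 4 genes rose. Cdt1, which delivers the Mcm ring to origins, stood at 5.37, 5.94 and 6.27 CPM in transgenic mice on high-fat diet, against 2.82, 2.82 and 3.61 CPM in transgenic mice on control diet. In wild-type mice Cdt1 stood at 4.06, 4.92 and 3.80 CPM on high-fat diet, against 4.46, 3.04 and 3.47 CPM on control diet. The diets did not overlap in transgenic mice and overlapped in wild-type mice. Its log2 fold change was 0.92 (SE 0.20, adjusted p = 0.0169) in transgenic and 0.22 (SE 0.20, adjusted p = 0.601) in wild-type mice, and the average was 0.57 (SE 0.14, adjusted p = 0.0167).

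Orc1 encodes the largest subunit of the origin recognition complex and was among the least abundant of the 36, with 5 to 26 counts per library. It stood at 1.01, 1.01 and 1.29 CPM in transgenic mice on high-fat diet, against 0.248, 0.471 and 0.632 CPM in transgenic mice on control diet. In wild-type mice Orc1 stood at 0.991, 0.878 and 0.510 CPM on high-fat diet, against 0.678, 0.304 and 0.462 CPM on control diet. All transgenic high-fat libraries lay above the transgenic control ones, and the wild-type groups overlapped. The averaged log2 fold change of 0.99 (SE 0.30, adjusted p = 0.0380) was called with wild-type control replicate 1, wild-type high-fat replicate 3 or transgenic control replicate 3 left out. It was lost without any other of the 12 libraries, with an adjusted p of up to 0.0975.

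Orc6, the smallest subunit of the complex, differed little. It stood at 11.1, 11.2 and 9.61 CPM in transgenic mice on high-fat diet, against 12.3, 9.10 and 8.21 CPM in transgenic mice on control diet. In wild-type mice Orc6 stood at 10.95, 15.6 and 11.9 CPM on high-fat diet, against 11.04, 11.8 and 15.7 CPM on control diet. Both pairs of groups overlapped, and the averaged log2 fold change was 0.05 (95% interval -0.24 to 0.35). Cdc6, the loading factor that works with Cdt1, averaged 2.42 ± 0.224 CPM on high-fat and 1.22 ± 0.314 CPM on control diet in transgenic mice (SD, n = 3 each), which was called (log2 0.98, SE 0.25, adjusted p = 0.0300). In wild-type mice Cdc6 averaged 1.78 ± 0.232 CPM on high-fat and 1.76 ± 0.198 CPM on control diet, and its averaged diet effect of 0.50 missed the threshold (adjusted p = 0.0650).

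Of the ring itself, 4 of the 6 subunits rose and 2 did not. Mcm6 had the largest rise among them. It stood at 12.8, 10.6 and 6.42 CPM in transgenic mice on high-fat diet, against 4.06, 3.45 and 2.75 CPM in transgenic mice on control diet. In wild-type mice Mcm6 stood at 6.56, 8.61 and 10.4 CPM on high-fat diet, against 4.07, 3.20 and 2.59 CPM on control diet. Every high-fat library was above every control library, and transgenic high-fat replicate 3 was the lowest of the high-fat ones. The averaged log2 fold change was 1.46 (SE 0.20, adjusted p = 0.000881), with 1.54 (SE 0.28, adjusted p = 0.00777) in transgenic and 1.38 (SE 0.28, adjusted p = 0.0401) in wild-type mice. The gene lies on chromosome 1 at 128331575 to 128359705 on the minus strand, just downstream of the promoter stretch printed above.

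Mcm5 stood at 12.1, 9.44 and 9.26 CPM in transgenic mice on high-fat diet, against 6.39, 4.44 and 4.83 CPM in transgenic mice on control diet. In wild-type mice Mcm5 stood at 5.62, 9.75 and 8.02 CPM on high-fat diet, against 4.65, 4.16 and 2.91 CPM on control diet. Each genotype showed no overlap between diets, although wild-type high-fat replicate 1 lay below transgenic control replicate 1. The averaged log2 fold change was 0.99 (SE 0.17, adjusted p = 0.00309), and the effect in wild-type mice, 0.998, did not pass (SE 0.24, adjusted p = 0.0676). Mcm2 and Mcm3 rose less, with averaged log2 fold changes of 0.67 (SE 0.13, adjusted p = 0.00529) and 0.53 (SE 0.12, adjusted p = 0.0121). Mcm2 ranged from 9.21 to 13.6 CPM over the high-fat libraries and from 5.33 to 8.47 CPM over the control ones, without overlap.

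Mcm7 and Mcm4 belong to the same ring and were level. Mcm7 stood at 21.0, 18.5 and 20.2 CPM in transgenic mice on high-fat diet, against 23.6, 18.9 and 21.2 CPM in transgenic mice on control diet. In wild-type mice Mcm7 stood at 18.3, 19.8 and 19.7 CPM on high-fat diet, against 23.4, 16.2 and 22.0 CPM on control diet. The diets overlapped in both genotypes, with an averaged log2 fold change of -0.09 (95% interval -0.30 to 0.12). Mcm4 averaged 13.3 ± 1.79 CPM on high-fat and 13.5 ± 1.49 CPM on control diet in transgenic mice, and 13.6 ± 2.60 and 12.7 ± 2.60 CPM in wild-type mice (SD, n = 3 each). Its interval, -0.24 to 0.32, lies below the averaged effects of Mcm2, Mcm3, Mcm5 and Mcm6.

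Because the 6 proteins assemble as a ring with a copy of each, their levels were also set per kilobase of transcript. On control diet Mcm6 reached 1.18 CPM per kilobase in transgenic and 1.13 in wild-type mice, while Mcm4 reached 3.76 and 3.53 and Mcm7 reached 7.17 and 6.94. On high-fat diet Mcm6 reached 3.41 in transgenic and 2.93 in wild-type mice. The ratio of Mcm6 to Mcm4 per kilobase was 1.04, 0.977 and 0.689 in transgenic mice on high-fat diet, against 0.388, 0.345 and 0.224 in transgenic mice on control diet. In wild-type mice the ratio was 0.610, 0.652 and 1.16 on high-fat diet, against 0.367, 0.405 and 0.218 on control diet. The lowest ratio on high-fat diet was above the highest on control diet. This pair of genes was chosen after their values had been seen, so the ratio is a description and was not tested. Mcm7 shares a little of its exon sequence with the microRNA genes Mir25 and Mir93 in its own introns and with neighbours on the other strand.

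**Figure D2:**
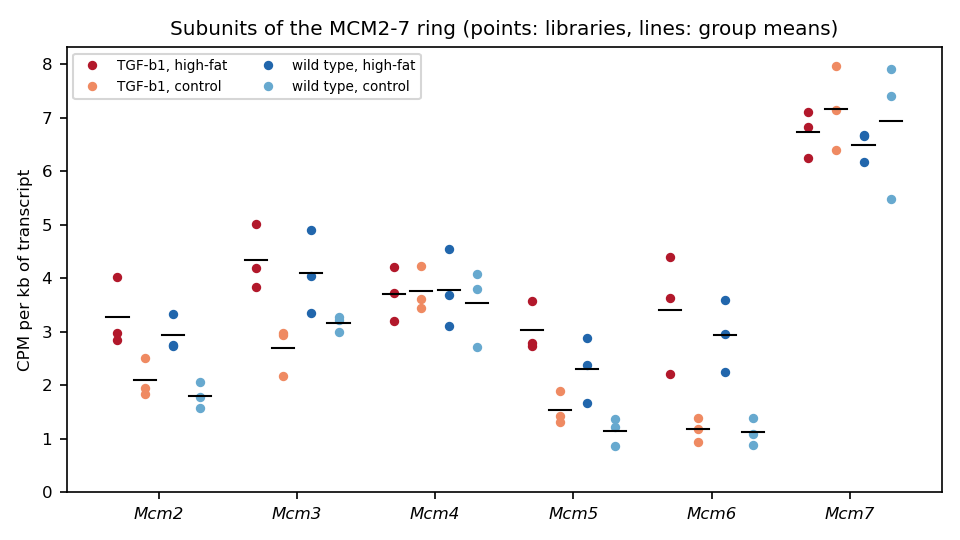
CPM per kilobase of transcript for the 6 subunits of the ring, with a point for each library, a line for each group mean, and groups ordered transgenic high-fat, transgenic control, wild-type high-fat and wild-type control. The high-fat points of Mcm6 and Mcm5 lie above their control points within each genotype, whereas the points of Mcm4 and Mcm7 intermingle.

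Among the partners of the helicase, Mcm10 and Gins2 rose and Cdc45, Gins1, Gins3 and Gins4 did not pass. Mcm10, which helps to switch on the loaded helicase, had the largest averaged effect of all 36 genes. It stood at 1.68, 1.34 and 1.84 CPM in transgenic mice on high-fat diet, against 0.446, 0.314 and 0.135 CPM in transgenic mice on control diet. In wild-type mice Mcm10 stood at 1.23, 1.14 and 1.25 CPM on high-fat diet, against 0.242, 0.304 and 0.231 CPM on control diet. The lowest high-fat library was above the highest control library of either genotype. Mcm10 was also the least abundant of the 36 per kilobase, with 3 to 37 counts per library, so its fold rests on few reads. Its log2 fold change was 2.43 (SE 0.37, adjusted p = 0.00347) in transgenic mice, 2.197 (SE 0.38, adjusted p = 0.0249) in wild-type mice and 2.31 (SE 0.27, adjusted p = 0.000440) averaged.

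The GINS complex has 4 subunits that work together, and their RNAs differed in level. Gins2 stood at 7.62, 6.66 and 7.32 CPM in transgenic mice on high-fat diet, against 4.81, 3.76 and 4.51 CPM in transgenic mice on control diet. In wild-type mice Gins2 stood at 6.00, 7.77 and 6.35 CPM on high-fat diet, against 5.38, 5.73 and 6.52 CPM on control diet. The transgenic groups were apart and the wild-type groups overlapped. The averaged log2 fold change was 0.46 (SE 0.12, adjusted p = 0.0193), and the call was lost without wild-type high-fat replicate 2 (adjusted p = 0.0551). Of the exon bases of Gins2, 67.3% are shared with Gse1 on the other strand, whose averaged log2 fold change was 0.24 (adjusted p = 0.170), and the strand setting of the counting is not given in the sources used here.

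Gins4 was far more abundant than its partners, at 20.7 CPM per kilobase in transgenic and 19.2 in wild-type mice on control diet, where Gins1 reached 2.23 and 2.08 and Gins3 reached 0.608 and 0.552. It stood at 34.6, 30.3 and 29.0 CPM in transgenic mice on high-fat diet, against 29.8, 27.6 and 26.2 CPM in transgenic mice on control diet. In wild-type mice Gins4 stood at 29.5, 27.2 and 30.9 CPM on high-fat diet, against 24.1, 25.8 and 27.6 CPM on control diet. The groups overlapped in each genotype, and the averaged log2 fold change was 0.17 (SE 0.07, adjusted p = 0.116). Cdc45, the factor that joins the ring and GINS, averaged 6.32 ± 0.391 CPM on high-fat and 4.75 ± 0.512 CPM on control diet in transgenic mice (SD, n = 3 each). Its averaged log2 fold change of 0.34 lay just outside the threshold (SE 0.11, adjusted p = 0.0576). Gins3 and Gins1 had averaged log2 fold changes of 0.41 and 0.22, with adjusted p-values of 0.148 and 0.394.

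The sliding clamp and its helper protein moved apart. Pclaf, a small protein that binds PCNA during replication, stood at 2.87, 3.21 and 2.04 CPM in transgenic mice on high-fat diet, against 0.743, 0.837 and 0.451 CPM in transgenic mice on control diet. In wild-type mice Pclaf stood at 1.75, 1.63 and 2.504 CPM on high-fat diet, against 0.436, 0.609 and 0.324 CPM on control diet. No high-fat library reached down to a control library. The log2 fold change was 2.00 (SE 0.34, adjusted p = 0.00535) in transgenic mice, 2.09 (SE 0.35, adjusted p = 0.0244) in wild-type mice and 2.05 (SE 0.24, adjusted p = 0.000484) averaged.

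Pcna, the clamp itself, was the most abundant of the 36 per kilobase and was level. It stood at 43.3, 36.4 and 34.0 CPM in transgenic mice on high-fat diet, against 41.8, 37.0 and 36.2 CPM in transgenic mice on control diet. In wild-type mice Pcna stood at 40.1, 35.0 and 39.0 CPM on high-fat diet, against 37.6, 36.5 and 40.5 CPM on control diet. The 4 groups overlapped throughout, and the averaged log2 fold change was -0.01 (95% interval -0.18 to 0.15). The annotation names 2 pseudogenes of Pcna, which could share reads with it. The ratio of Pclaf to Pcna per kilobase was 0.0417 to 0.0612 in transgenic mice on high-fat diet, against 0.00864 to 0.0157 in transgenic mice on control diet. In wild-type mice that ratio was 0.0302 to 0.0446 on high-fat diet, against 0.00554 to 0.0116 on control diet, and this pair too was chosen after its values had been seen.

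Of the 3 subunits of the clamp loader in the set, Rfc5 rose while Rfc3 and Rfc4 did not pass. The other subunits, Rfc1 and Rfc2, belong to the list of other fork genes and had averaged log2 fold changes of 0.05 (adjusted p = 0.584) and 0.02 (adjusted p = 0.869). Rfc5 stood at 7.33, 6.76 and 6.08 CPM in transgenic mice on high-fat diet, against 4.31, 4.24 and 5.78 CPM in transgenic mice on control diet. In wild-type mice Rfc5 stood at 6.00, 6.28 and 5.56 CPM on high-fat diet, against 4.07, 4.36 and 5.04 CPM on control diet. Diets were apart within each genotype, with transgenic control replicate 3 the highest control library. The averaged log2 fold change was 0.45 (SE 0.12, adjusted p = 0.0261) and was lost without any 1 of 7 libraries, with an adjusted p of up to 0.0636. Those were transgenic high-fat replicate 1, transgenic control replicates 1 and 2, wild-type high-fat replicates 1 and 2 and wild-type control replicates 1 and 2. Rfc4 and Rfc3 had averaged log2 fold changes of 0.38 (adjusted p = 0.145) and 0.16 (adjusted p = 0.356).

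The polymerase genes rose and the primase gene did not pass. Pole, the catalytic subunit of the leading-strand polymerase epsilon, stood at 8.14, 8.86 and 6.92 CPM in transgenic mice on high-fat diet, against 3.57, 3.503 and 4.60 CPM in transgenic mice on control diet. In wild-type mice Pole stood at 6.89, 8.21 and 7.09 CPM on high-fat diet, against 4.16, 3.65 and 4.67 CPM on control diet. All 6 high-fat libraries were above all 6 control libraries. The log2 fold change was 1.03 (SE 0.18, adjusted p = 0.00587) in transgenic mice, 0.83 (SE 0.18, adjusted p = 0.0446) in wild-type mice and 0.93 (SE 0.12, adjusted p = 0.000836) averaged.

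Pola1, the catalytic subunit of polymerase alpha that starts each new strand, stood at 8.91, 7.57 and 7.22 CPM in transgenic mice on high-fat diet, against 6.84, 5.39 and 5.19 CPM in transgenic mice on control diet. In wild-type mice Pola1 stood at 7.36, 7.16 and 7.84 CPM on high-fat diet, against 5.86, 4.67 and 5.55 CPM on control diet. Again no high-fat library overlapped a control library, and the averaged log2 fold change was 0.46 (SE 0.11, adjusted p = 0.0176). Neither genotype passed alone, at 0.44 (adjusted p = 0.106) in transgenic and 0.48 (adjusted p = 0.153) in wild-type mice. Prim1, the catalytic primase that works in the same complex as Pola1, had an averaged log2 fold change of 0.03 (95% interval -0.36 to 0.42).

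Nucleotide supply showed the same contrast inside ribonucleotide reductase, which makes deoxynucleotides and is built from the large subunit Rrm1 and the small subunit Rrm2. Rrm2 stood at 5.22, 5.99 and 3.29 CPM in transgenic mice on high-fat diet, against 1.14, 1.93 and 1.08 CPM in transgenic mice on control diet. In wild-type mice Rrm2 stood at 3.35, 3.69 and 4.31 CPM on high-fat diet, against 1.36, 1.67 and 1.90 CPM on control diet. The 2 diets were apart over all 12 libraries. The log2 fold change was 1.80 (SE 0.29, adjusted p = 0.00468) in transgenic mice, 1.20 (SE 0.29, adjusted p = 0.0647) in wild-type mice and 1.502 (SE 0.21, adjusted p = 0.000905) averaged. Rrm1 averaged 21.2 ± 3.13 CPM on high-fat and 21.0 ± 1.85 CPM on control diet in transgenic mice, and 23.6 ± 1.71 and 21.5 ± 2.53 CPM in wild-type mice (SD, n = 3 each). Its averaged log2 fold change was 0.08 (95% interval -0.12 to 0.28).

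The ratio of Rrm2 to Rrm1 per kilobase was 0.390, 0.514 and 0.331 in transgenic mice on high-fat diet, against 0.0915, 0.185 and 0.0925 in transgenic mice on control diet. In wild-type mice the ratio was 0.277, 0.289 and 0.309 on high-fat diet, against 0.101, 0.152 and 0.173 on control diet. As for the other ratios, the pair was chosen with its values known and no test is given. Tk1, the thymidine kinase of dividing cells, stood at 4.07, 3.497 and 2.89 CPM in transgenic mice on high-fat diet, against 1.93, 2.61 and 1.17 CPM in transgenic mice on control diet. In wild-type mice Tk1 stood at 3.21, 2.72 and 3.34 CPM on high-fat diet, against 1.26, 1.22 and 1.57 CPM on control diet. The diets did not overlap, and the averaged log2 fold change was 1.03 (SE 0.20, adjusted p = 0.00558). Tyms, which makes thymidylate and has a named pseudogene, had an averaged log2 fold change of 0.12 (adjusted p = 0.544).

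**Figure D3:**
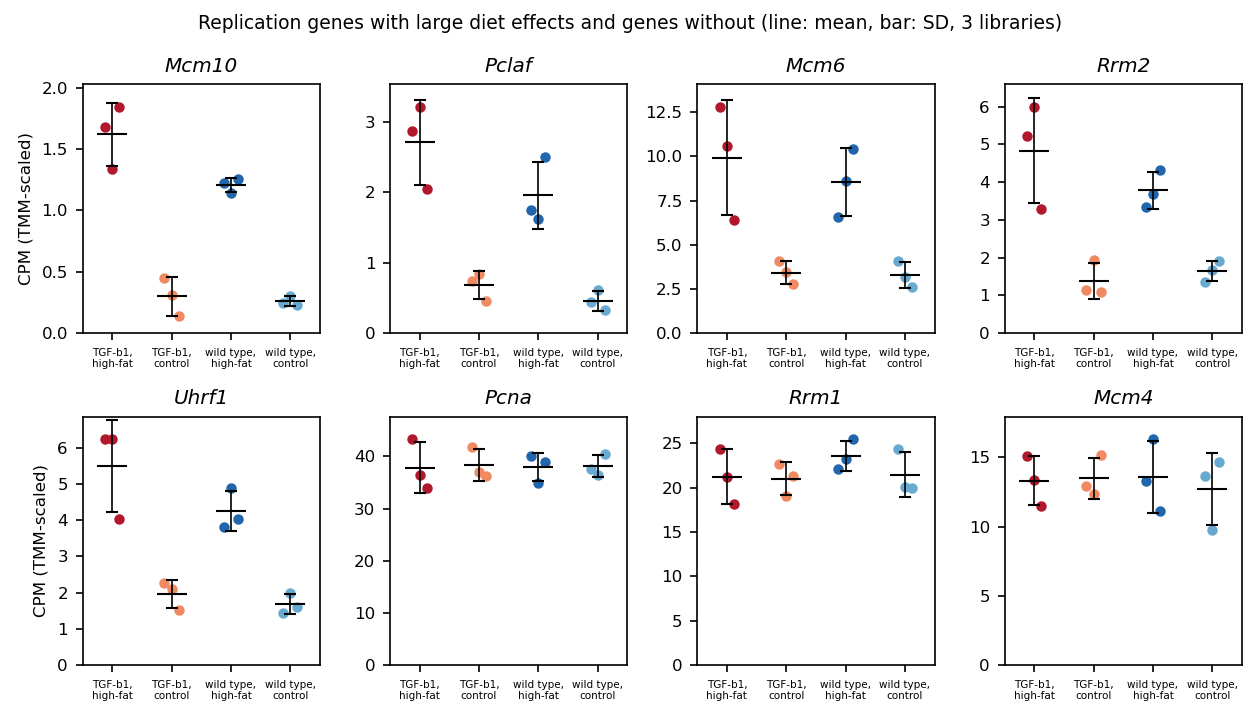
CPM in each library for 5 genes with large diet effects and for Pcna, Rrm1 and Mcm4, with points for libraries, lines for group means and bars for the SD over 3 libraries; each panel has its own axis from 0. The high-fat points of Mcm10, Pclaf, Mcm6, Rrm2 and Uhrf1 lie above all control points, and those of Pcna, Rrm1 and Mcm4 overlap them.

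The genes that finish new strands, Fen1 and Lig1, rose, and the repair gene Ung did not pass. Fen1, the nuclease that trims the flaps of Okazaki fragments, stood at 7.62, 5.94 and 7.17 CPM in transgenic mice on high-fat diet, against 3.12, 3.87 and 3.29 CPM in transgenic mice on control diet. In wild-type mice Fen1 stood at 5.90, 6.59 and 5.98 CPM on high-fat diet, against 3.63, 4.92 and 4.95 CPM on control diet. The groups did not overlap, and the averaged log2 fold change was 0.73 (SE 0.13, adjusted p = 0.00306). Of its exon bases, 84.2% are shared with Gm10143 and Tmem258 on the other strand, and the part of each was not separated. Tmem258 stood at 11.6 to 18.6 CPM and had an averaged log2 fold change of -0.26 (adjusted p = 0.0926), and Gm10143 was not examined.

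Lig1, the ligase that seals those fragments, stood at 9.77, 9.63 and 7.22 CPM in transgenic mice on high-fat diet, against 5.70, 7.63 and 6.36 CPM in transgenic mice on control diet. In wild-type mice Lig1 stood at 7.27, 7.64 and 8.996 CPM on high-fat diet, against 5.52, 4.87 and 6.01 CPM on control diet. The transgenic groups overlapped through control replicate 2, and the averaged log2 fold change was 0.49 (SE 0.12, adjusted p = 0.0185). Ung, the glycosylase that removes uracil from DNA, stood at 4.12, 5.27 and 5.28 CPM in transgenic mice on high-fat diet, against 5.70, 3.40 and 4.06 CPM in transgenic mice on control diet. In wild-type mice Ung stood at 4.48, 4.92 and 3.52 CPM on high-fat diet, against 3.63, 3.91 and 9.38 CPM on control diet. The value in wild-type control replicate 3 was the highest of the 12, and without that library the log2 fold change in wild-type mice was 0.19, against -0.39 with it (adjusted p = 0.583).

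All 5 genes of the chromatin and checkpoint group rose. Uhrf1, which reads hemimethylated DNA behind the fork and recruits the maintenance methyltransferase, stood at 6.23, 6.23 and 4.03 CPM in transgenic mice on high-fat diet, against 2.28, 2.09 and 1.53 CPM in transgenic mice on control diet. In wild-type mice Uhrf1 stood at 3.82, 4.88 and 4.03 CPM on high-fat diet, against 1.45, 1.98 and 1.62 CPM on control diet. No library of one diet fell within the range of the other. The log2 fold change was 1.48 (SE 0.24, adjusted p = 0.00469) in transgenic mice, 1.33 (SE 0.24, adjusted p = 0.0299) in wild-type mice and 1.41 (SE 0.17, adjusted p = 0.000541) averaged.

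Chaf1a, the large subunit of the chromatin assembly factor that deposits histones on new DNA, stood at 5.46, 3.93 and 5.83 CPM in transgenic mice on high-fat diet, against 2.28, 2.61 and 1.99 CPM in transgenic mice on control diet. In wild-type mice Chaf1a stood at 4.53, 5.05 and 4.13 CPM on high-fat diet, against 2.76, 2.18 and 2.45 CPM on control diet. The groups were apart, with an averaged log2 fold change of 1.02 (SE 0.15, adjusted p = 0.00121). Its exons share 52.5% of their bases with Ubxn6 on the other strand, whose averaged log2 fold change was 0.08 (adjusted p = 0.462). The second subunit gene, Chaf1b, had an averaged log2 fold change of 0.81 (SE 0.19, adjusted p = 0.0137). Dnmt1, the maintenance methyltransferase, had 0.35 (SE 0.08, adjusted p = 0.0143). Chek1, the kinase of the replication checkpoint, had 1.08 (SE 0.32, adjusted p = 0.0363) on 7 to 33 counts per library, and its call was lost in 9 of the 12 fits that left out 1 library (adjusted p up to 0.0864).

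**Figure D4:**
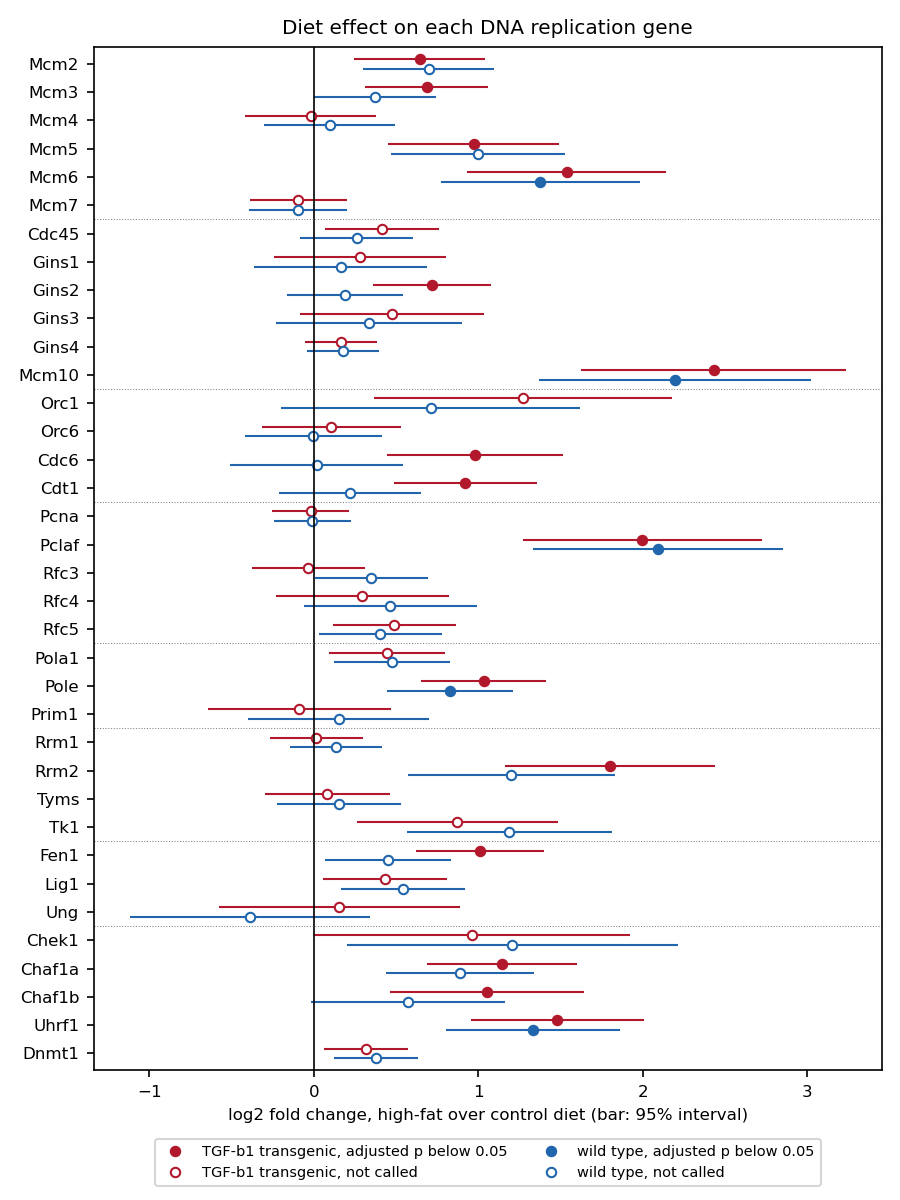
Log2 fold change of high-fat over control diet for each of the 36 genes, in transgenic mice (red) and wild-type mice (blue), with 95% intervals as bars; filled points have an adjusted p below 0.05 and open points do not, and dotted lines separate the role groups. The filled points all lie right of 0, and the intervals of Pcna, Mcm4, Mcm7, Orc6 and Rrm1 span 0 in both genotypes.

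The level of a gene on control diet and its diet effect ran opposite to each other within the set. The 21 genes that rose had a median of 1.13 CPM per kilobase over the 6 control libraries (0.0573 to 3.37), and the other 15 had a median of 2.35 (0.580 to 25.2). The 7 genes with the highest control levels were Pcna, Gins4, Orc6, Mcm7, Rrm1, Rfc3 and Mcm4, and none of them was called. Dnmt1, at 3.37 CPM per kilobase, was the most abundant gene that rose. Control libraries enter both the level and the fold change, so this is a description of these genes and carries no test. As a sum over genes, the 21 that rose gave 149 ± 13.9 CPM on high-fat and 86.8 ± 2.64 CPM on control diet in transgenic mice, and 128 ± 9.84 and 82.6 ± 3.57 CPM in wild-type mice (SD, n = 3 each). The other 15 summed to 171 ± 16.3 and 164 ± 12.6 CPM in transgenic mice and to 172 ± 2.23 and 164 ± 14.5 CPM in wild-type mice. The genes were split by their diet call in these same libraries, so the sums describe that split and are not a test.

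**Figure D5:**
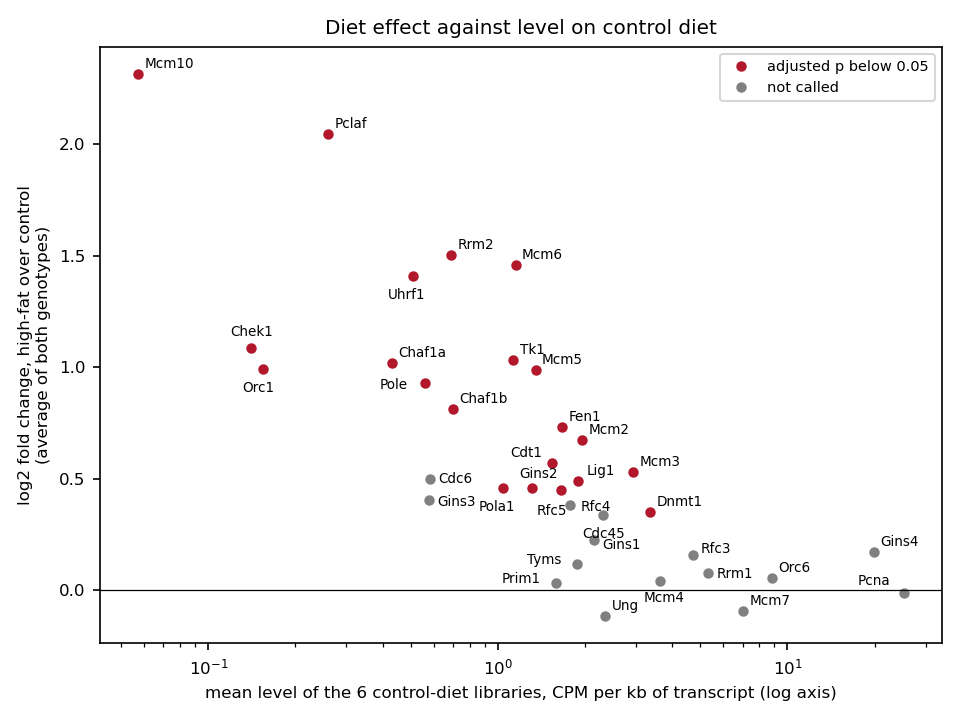
Averaged log2 fold change of high-fat over control diet against the mean level of the 6 control-diet libraries in CPM per kilobase (log axis), with a point for each of the 36 genes. Mcm10, at the lowest level, has the largest fold change, and the 7 genes with the highest levels, from Mcm4 at 3.65 to Pcna at 25.2, lie near 0.

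The transgene gave no call among the 36 genes. On control diet 0 were called by edgeR's quasi-likelihood test, where 0.0363% of all genes were called in either direction, and 2 had an unadjusted p below 0.05 (11% of all genes did). On high-fat diet 0 were called, where 0% of all genes were, and 2 had an unadjusted p below 0.05 (6.73% of all genes). DESeq2 and limma-voom each called 0 on both diets as well. DESeq2 called 1.69% of all genes on control and 0.00933% on high-fat diet, and limma-voom 0.0483% and 0%. On control diet, 21 of the 36 log2 fold changes of transgenic over wild-type mice were positive (49% of all genes), and on high-fat diet 29 were (50.3%). All transgenic libraries lay above all wild-type libraries on control diet for Dnmt1 (6.5% of all genes) and below them for Mcm3, Gins2 and Cdc6 (7.56%). On high-fat diet they lay above for Mcm10, Orc1, Cdc6, Cdt1 and Dnmt1 (7.52% of all genes) and below for none (6.44%). The median log2 fold change of transgenic over wild-type mice was 0.06 on control diet and 0.16 on high-fat diet, against medians of -0.00 and 0.00 over all genes. The genes under the unadjusted threshold on control diet were Gins2 (log2 -0.43, adjusted p = 0.365) and Dnmt1 (0.33, adjusted p = 0.345). On high-fat diet they were Cdt1 (0.46, adjusted p = 0.714) and Dnmt1 (0.27, adjusted p = 0.721). Dnmt1 averaged 25.1 ± 2.23 CPM in transgenic and 20.9 ± 1.20 CPM in wild-type mice on high-fat diet, and 20.1 ± 2.97 and 16.0 ± 0.498 CPM on control diet (SD, n = 3 each). Dnmt1 was singled out after its values had been seen.

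The diet effect in transgenic mice minus that in wild-type mice was called for 0 of the 36 genes, where 0% of all genes were called. DESeq2 and limma-voom also called 0 of the 36, where they called 0.215% and 0% of all genes. The median of this difference over the set was 0.10, against 0.01 over all genes, and 20 of the 36 values were positive (51.3% of all genes). An unadjusted p below 0.05 was reached by 4 genes (5.61% of all genes reached it). These were Cdc6 (0.96, 95% interval 0.21 to 1.71), Cdt1 (0.70, 0.09 to 1.31), Fen1 (0.56, 0.01 to 1.11) and Gins2 (0.53, 0.03 to 1.03), with adjusted p-values of 0.805 to 0.864. The larger count of calls in transgenic than in wild-type mice is thus not shown to be a difference between genotypes. Intervals for the other genes were wide, at -0.96 to 1.43 for Mcm10 and -0.69 to 1.01 for Mcm6.

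In the authors' deposited tables, 12 of the 36 genes were called higher on high-fat diet in transgenic mice (5.93% of all genes) and 10 in wild-type mice (3.06%). For the transgene, the authors' deposited tables give an adjusted p for 35 of the 36 genes on control diet and for 33 on high-fat diet. They called 0 of these on either diet, where the authors' deposited tables called 0.942% and 0.554% of all genes with an adjusted p.

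Other genes of the same process were read from lists of related function, whose counts stand against 9.43% of all genes called higher and 7.98% called lower for the averaged diet effect. Of 15 other origin genes, 4 were called higher and 0 lower for the averaged diet effect. Ticrr, which brings Cdc45 to origins, had a log2 fold change of 1.88 (SE 0.44, adjusted p = 0.0127). Cdc7 and its activator Dbf4, the kinase that fires origins, had 0.78 (adjusted p = 0.0155) and 0.75 (adjusted p = 0.00686), and Topbp1 had 0.30 (adjusted p = 0.0242). Of 26 other fork genes, 7 were called higher and 1 lower. Clspn, which carries the checkpoint signal at the fork, had 1.70 (SE 0.29, adjusted p = 0.00297), Dna2 had 1.15 (SE 0.20, adjusted p = 0.00279) and Timeless had 0.60 (SE 0.13, adjusted p = 0.0111). Pold2, an accessory subunit of polymerase delta, was the gene called lower (-0.52, SE 0.09, adjusted p = 0.00317), with every high-fat library below every control library.

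Of 9 other nucleotide genes, 2 were called higher and 1 lower, a count of lower calls close to the share over all genes. Dck, a salvage kinase, had 0.46 (adjusted p = 0.0215) and Samhd1, which degrades deoxynucleotides, had 0.27 (adjusted p = 0.0324). Rrm2b, the small reductase subunit that serves cells outside S phase, was lower (-0.28, SE 0.08, adjusted p = 0.0338), opposite in sign to Rrm2. Of 9 tested genes for chromatin and checkpoint beyond the set, 3 were called higher and 0 lower (Hells, Asf1b and Slbp), and Atrip did not pass the filter. The 12 genes of mitosis gave 10 higher calls and 0 lower, led by Mki67 (1.64, SE 0.19, adjusted p = 0.000488), Bub1 (2.48, SE 0.33, adjusted p = 0.000867), Top2a (1.71, SE 0.25, adjusted p = 0.00127) and Foxm1 (1.104, SE 0.17, adjusted p = 0.00188).

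Regulators of the entry into S phase gave 10 higher calls and 0 lower among 23 genes. Ccnd1, the cyclin of G1 phase, had 0.91 (SE 0.13, adjusted p = 0.00108) and Ccne1, the cyclin that starts S phase, had 0.77 (SE 0.12, adjusted p = 0.00202). The repressive family members E2f7 and E2f8 had 1.097 (SE 0.16, adjusted p = 0.00104) and 1.67 (SE 0.30, adjusted p = 0.00374). None of 7 inhibitors of cyclin-dependent kinases was called by edgeR's quasi-likelihood test, by DESeq2 or by limma-voom, and 2 had an unadjusted p below 0.05 in the first (32.4% of all genes did). Cdkn1a, a target of p53 that halts the cycle, averaged 62.7 CPM on high-fat and 128 CPM on control diet in wild-type mice (log2 -1.03, adjusted p = 0.0946). In transgenic mice Cdkn1a averaged 65.4 CPM on high-fat and 64.3 CPM on control diet. Of 11 genes that copy mitochondrial DNA, 0 were called by edgeR's quasi-likelihood test, where 5 had an unadjusted p below 0.05 (32.4% of all genes did), while DESeq2 called 1 lower (Mgme1) and limma-voom 3 (Mgme1, Tfb2m and Top1mt). All 11 had a negative averaged log2 fold change, with a median of -0.18 and the lowest at -0.35 for Mgme1 (adjusted p = 0.0547).

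Markers of some blood-borne cells differed between diets beside the replication genes, and their counts too stand against 9.43% of all genes called higher and 7.98% lower. Of 7 macrophage markers, 2 were called higher and 0 lower for the averaged diet effect, and their summed level was 615 to 781 CPM on high-fat and 456 to 563 CPM on control diet in transgenic mice. In wild-type mice that sum was 598 to 667 CPM on high-fat and 549 to 577 CPM on control diet. Of 6 markers of T and NK cells, 4 were called higher and 0 lower, with sums of 3.11 to 10.5 CPM on high-fat and 2.09 to 3.37 CPM on control diet in transgenic mice. In wild-type mice their sums were 6.94 to 8.25 CPM on high-fat and 2.96 to 4.89 CPM on control diet. Markers of lipid-associated macrophages gave 2 higher calls and 1 lower of 6, those of B cells 0 calls of 5 tested (median log2 -0.05), and those of erythroid cells 3 lower calls and 0 higher of 4 tested. In the lipid-associated list, Lpl stood at 11873 to 15713 CPM on high-fat and 7684 to 9875.5 CPM on control diet. The highest value of any other gene of that list was 151 CPM, for Gpnmb in wild-type high-fat replicate 1. Whether the Lpl RNA came from macrophages was not tested. Itgax stood at 5.84 to 16.5 and 1.14 to 2.76 CPM. Trem2 ran the other way with overlap, at 12.7 to 31.8 and 16.1 to 63.1 CPM, and Cd9, Gpnmb and Spp1 overlapped between diets. Dendritic cell markers gave 3 higher calls of 6, and none of these macrophage, T, NK or dendritic cell markers was at 0 in every library. Of 6 progenitor markers 1 was called higher and 1 lower, and of 6 adipocyte markers 0 were called. Mesothelial markers gave 3 lower calls of 5, epithelial markers 3 lower of 6 and Schwann cell markers 1 lower of 4. Endothelial markers gave 1 higher call of 5, liver markers 1 higher of 4 and muscle markers 0 calls of 3 tested. The part of these cell types in the replication genes was not tested.

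The highest and lowest values of the replication genes within each group were counted by library, without the share over all genes. Transgenic high-fat replicate 1 held the group's highest value for 21 of the 36 genes. Transgenic high-fat replicate 3 held the lowest value for 23 genes. The highest value fell in transgenic control replicate 1 for 21 genes, in wild-type high-fat replicate 2 for 18 and in wild-type control replicate 3 for 18. Other counts were split, with 14 highest values in wild-type control replicate 1. In transgenic control replicates 2 and 3 the lowest value fell for 15 and 16 genes. The summed macrophage markers were highest of the group in transgenic high-fat replicate 1 (781 CPM) and lowest in transgenic control replicate 1 (456 CPM). In wild-type high-fat replicate 1 they were the highest (667 CPM), where 18 replication genes had their lowest value. They were also the highest in wild-type control replicate 3 (577 CPM), where 18 had their highest. Other marker lists were not set beside these counts, and a link to the macrophage sums was not tested. These genes share a library and its scaling, so the counts describe libraries and are not tests.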

How the data were processed

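Total RNA from the visceral fat depot gave 12 libraries (DNBseq, per the labels' protocols), grouped by genotype and diet from the sample titles. The authors deposited whole-number read counts per gene symbol, not normalized. The authors also deposited tables with a log2 fold change and an adjusted p-value per gene for 4 pairwise comparisons, per the file headers. The tools named are HISAT2 2.2.0, HTSeq 2.0 and DESeq2 1.32.0, with the build mm10, per the submitters' processing notes. Their roles, the annotation and the strand setting are not given here. Reads not assigned to a gene (16.8% to 21.0% of reads per library, of which 6.72% to 11.8% of reads aligned to several places) stayed out of library sizes and tests. Multiply aligned reads are not in the gene counts, so genes with near-identical copies may be counted low.

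The tests were run with edgeR 4.0.16 (R 4.3.3). The filter was filterByExpr (minimum count 10, minimum total 15), which left 16550. Libraries were scaled by TMM, and 1 model with a mean for each group over all 12 libraries (8 residual degrees of freedom, biological coefficient of variation 20.1%) was tested by quasi-likelihood, with Benjamini-Hochberg adjustment over all genes tested. The averaged diet effect is the mean of the 2 diet effects. Levels per kilobase use the longest principal transcript in GENCODE. No 2 libraries had like counts within sampling noise (smallest chi-square divided by its degrees of freedom 20.7). The fitting code was tested on simulated data. Alternatives were DESeq2 1.42.0, limma-voom with quality weights (limma 3.58.1), other size factors, no filter, compared groups only, a replicate block, and libraries left out.

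The 36 genes, the lists of related genes and markers, and the comparisons were chosen with earlier results of these data known. All 36 genes are accounted for by role; group means of Cdc6, Cdc45, Mcm4, Rrm1 and Dnmt1 and the range of Mcm2 were added with their values known. Values in every library are given for the 2 genes with the smallest p for the averaged diet effect in each role group, for those with a negative averaged effect or any call for the transgene or the interaction (none had one) and for the 3 most abundant per kilobase. From each related list the 4 genes with the smallest p are named where called, with any called in the opposite direction.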

Additional observations from a re-analysis of the deposited data

How the results depend on the processing

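For the averaged diet effect, 13 of the 21 genes that rose were called under all 19 alternatives run: Mcm2, Mcm3, Mcm5, Mcm6, Mcm10, Cdt1, Pclaf, Pole, Rrm2, Tk1, Fen1, Chaf1a and Uhrf1. With any 1 library left out, 17 were called. The count was 21 with DESeq2 (18.7% of all genes) and 23 with limma-voom (19.4%), and 18 to 21 with 1 library left out. In transgenic mice the count of 15 ranged from 8 to 14 with 1 library left out. In wild-type mice the count of 5 was 10 with DESeq2 (4.99% of all genes) and 10 with limma-voom (4.22%). It was 8 with no filter on low counts, and 0 without both epithelium-rich or both muscle-rich libraries. With 1 library left out it ranged from 0 to 6, where fewer samples enter the fit. No median of the 36 genes changed sign for the diet effects. The medians for the transgene on control diet and for the difference between genotypes did, reaching -0.04 without transgenic control replicate 1 and -0.02 without wild-type control replicate 3. The labels state no pairing by replicate number. Same-numbered libraries had correlations of -0.11 to 0.27 in their deviations from group means, and differently numbered ones -0.26 to 0.19. Of the 12 libraries, 4 correlated best with their own number. With 3 libraries per group this check is weak and cannot exclude a shared origin of same-numbered libraries. With the replicate number as a block, the counts were 12 in transgenic and 3 in wild-type mice, and 19 averaged. Genes with few reads, such as Mcm10, Orc1 and Chek1, had the widest intervals of the averaged diet effect.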
